A study of Mus musculus with 6 samples.

Results

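Smooth muscle and pericyte genes were described in whole lung of mice lacking lincRNA-Cox2, a long noncoding RNA transcribed beside Ptgs2, the inducible cyclooxygenase gene. They are 29 genes chosen by symbol, out of 20494 gene rows, and comprise the contractile genes of smooth muscle, their transcriptional regulators and genes of pericytes. Each of the 29 matched 1 row, and all 29 had an adjusted p-value, as did 16902 rows in all. The 2 groups were untreated male C57BL/6 mice, 4 months old: 3 wild type libraries and 3 libraries from lincRNA-Cox2 knockout animals. The labels do not describe the knockout allele further. RNA came from the whole organ, so cell types were not separated, and airway muscle, vascular muscle and pericytes contributed to the same values.

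Smooth muscle shortens when calcium and calmodulin activate myosin light chain kinase, which phosphorylates the myosin regulatory light chain and lets myosin pull on smooth muscle actin. Many genes of this machinery are transcribed by serum response factor (Srf), which binds a short A/T-rich element called the CArG box, with myocardin as its coactivator in smooth muscle. Pericytes sit on capillaries and small vessels, depend on the platelet-derived growth factor receptor beta, and in the lung are found throughout the alveolar wall. In this organ the contractile genes are known from bronchial muscle, from the walls of pulmonary vessels and from myofibroblasts.

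The regulatory element that links many of these genes is shown first. The promoter windows of RefSeq (build GRCm38.p6, the same coordinates as mm10) run from 250 bases before a gene's start to 50 bases from it on, and 22 of the 29 genes had one. The other 7, among them Tagln, Myh11 and Actg2, had no window and were not searched. A CArG box was searched as CC, 6 bases that are A or T, and GG, which reads as the same class on both strands. It occurred in the windows of 4 of the 22 genes (18.2%), Srf itself, Myl9, Vcl and Trpc6, and in 1.63% of all 32851 windows. The stretches are printed 5′ to 3′ on the strand of the gene, with the CArG boxes in capitals:

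Srf: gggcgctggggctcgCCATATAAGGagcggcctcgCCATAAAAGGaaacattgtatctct

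Myl9: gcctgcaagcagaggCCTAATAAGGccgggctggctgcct

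Vcl: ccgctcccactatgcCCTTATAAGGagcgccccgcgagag

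Trpc6: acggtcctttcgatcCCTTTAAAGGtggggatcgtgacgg

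The Srf stretch lies at chr17:46556200-46556259 on the minus strand, and its 2 boxes begin 82 and 62 bases before the start. The Myl9 stretch is chr2:156775288-156775327 on the plus strand, with the box 161 bases before the start. Those of Vcl and Trpc6 are chr14:20929156-20929195 and chr9:8544005-8544044, both on the plus strand, with boxes 227 and 122 bases before the start. None of the 4 stretches overlapped an annotated exon in GENCODE M21. When 1 of the 6 core bases was allowed to be C or G, the element was present in 22.7% of the 22 genes and 9.98% of all windows. The addition was Acta2, the gene of smooth muscle alpha-actin, which holds CCCTATATGG 84 bases and CCTTGTTTGG 34 bases before its RefSeq start. Both lie in stretches that overlap exons annotated to Acta2 in GENCODE M21. Myl9 also held such an element, CCTTGTAAGG, 99 bases before its start. A match of letters is a description of the sequence and no measure of binding, and elements outside these windows were not searched.

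The targeted transcript was checked before the comparison. In the authors' deposited table lincRNA-Cox2 averaged 311 normalized counts in wild type and 0.666 in knockout (adjusted p = 4.05e-91), and Ptgs2 had 2929 and 298 (adjusted p = 9.55e-11). The table gives group means and 1 comparison, knockout over wild type, with no values of single libraries, so errors below are its standard errors of a shrunken log2 fold change. Normalized counts summed to 3.71e+07 per library in wild type and 3.68e+07 in knockout. Relative size factors derived from the means of low genes lay between 0.961 and 1.03 over the 6 libraries, so that depth was even between genotypes.

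All 29 genes were detected in lung, over a wide range of levels. Divided by exon length (the union of exons in GENCODE M21), wild type levels ran from 15.2 normalized counts per kb for Myocd to 3493 for Myl9, the myosin regulatory light chain. Next to Myl9 stood Mcam (CD146) at 3430, which endothelium also carries, Flna, the actin crosslinker filamin A, at 3192, Tagln, the actin-binding protein transgelin or SM22, at 2963, and Acta2 at 2824 per kb. Myh11, the smooth muscle myosin heavy chain, stood at 1032 per kb and Actg2, the gamma-actin typical of gut and other visceral muscle, at 504. The lowest after Myocd were Cspg4 at 86.3, Synpo2 at 99.3 and Abcc9 at 104 per kb. The defining smooth muscle genes Acta2, Myh11 and Tagln and the defining pericyte gene Pdgfrb (1157 per kb) were thus present in both genotypes. Standard errors of levels are not in the table, so the order of genes close to each other is uncertain.

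**Figure D1:**
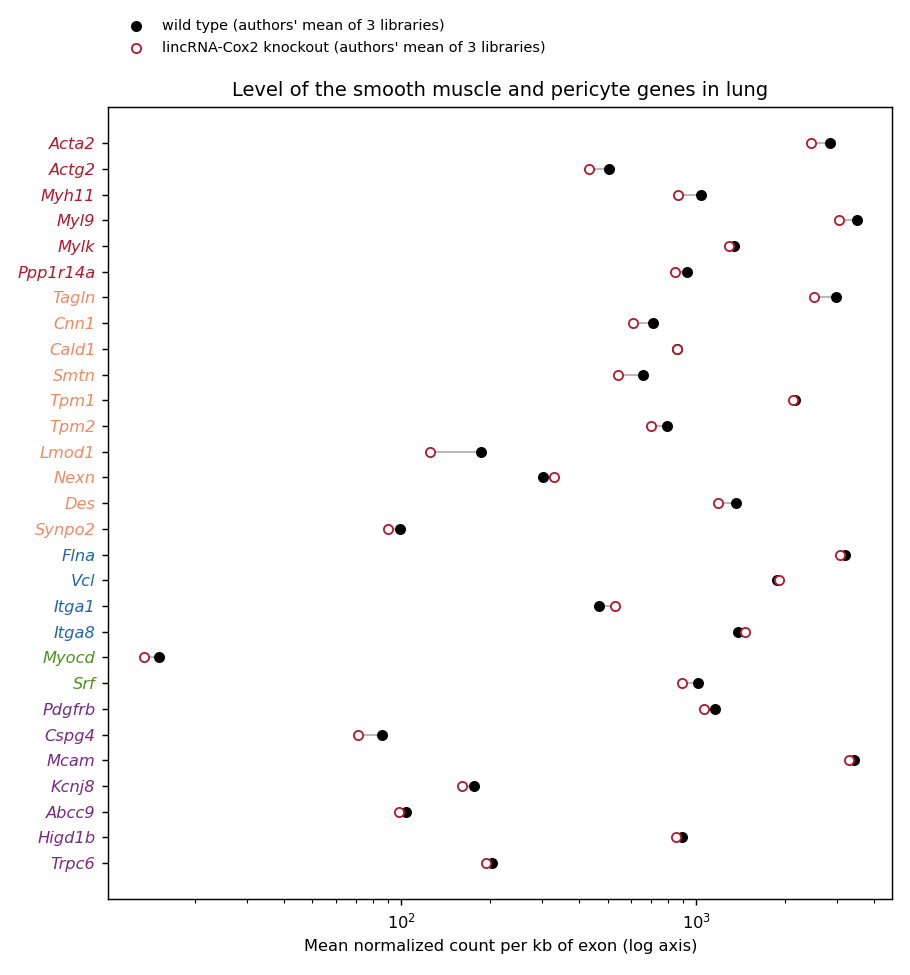
Authors' mean normalized count per kb of exon (log axis) for each of the 29 genes, filled for wild type and open for knockout, with gene names coloured by role. Levels run from Myocd at 15.2 to Myl9 at 3493 per kb in wild type, and in 24 of 29 genes the open circle lies left of the filled one.

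Of the 29 genes, 1 passed the test and 24 had a lower mean in knockout than in wild type. The gene called at an adjusted p under 0.05 in the authors' deposited table was Lmod1, lower in knockout, which is 3.45% of the 29 against 1.09% of all rows tested. Over all rows 0.497% were called lower and 0.592% higher. At an unadjusted p under 0.05, which allows for no multiple testing, 7 of 29 (24.1%) were lower in knockout and 0 higher, against 8.47% of all rows in either direction and 4.04% lower. Of the rows with a mean of at least 1000, a range that holds 22 of the 29, 5.57% were lower by the same measure. The median log2 ratio of the group means was -0.14 over the 29 genes, a 1.10-fold lower level, and -0.0013 over all rows with an adjusted p. In all, 82.8% of the 29 genes and 50.6% of all rows were below their wild type mean. These counts describe genes that share cells and libraries and are no test of the group. In whole lung, fewer muscle cells or pericytes and less RNA per cell cannot be told apart.

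**Figure D2:**
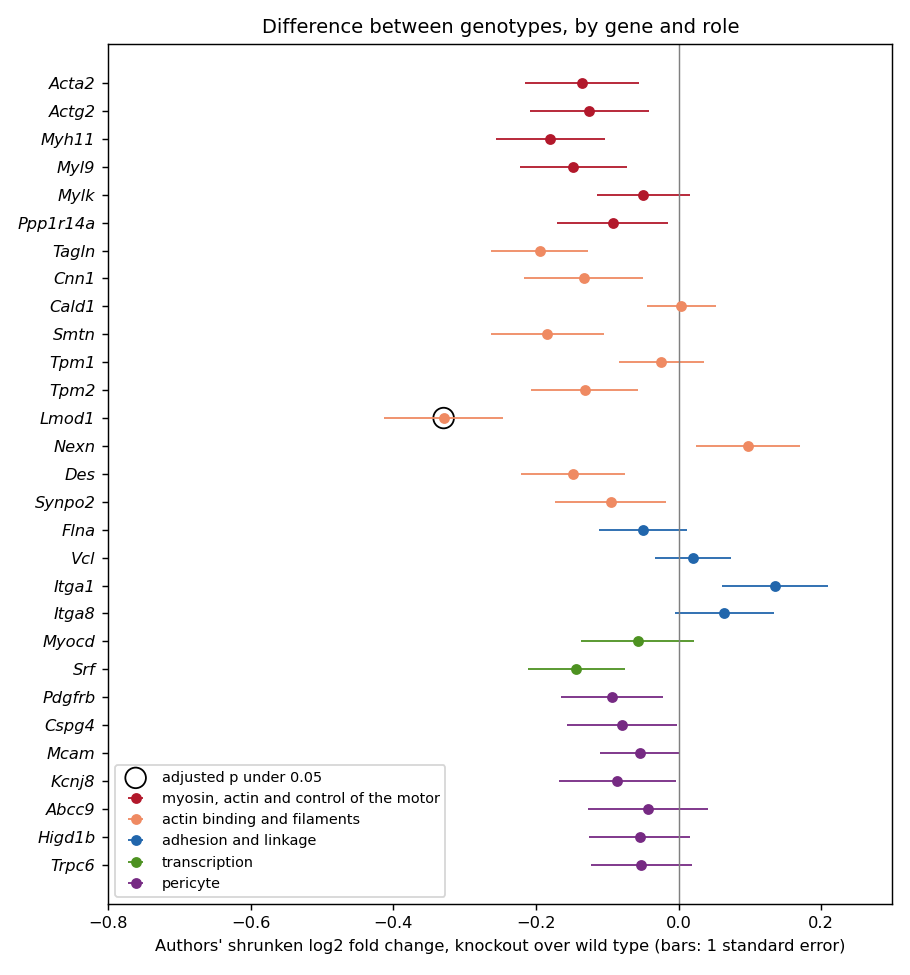
Shrunken log2 fold change (authors' value, knockout relative to wild type) of each of the 29 genes, with bars of 1 standard error and colours by role. Lmod1, circled, lies at -0.33, the 6 genes of the motor and its control all lie below 0, and 3 of the 4 adhesion and linkage genes lie above 0.

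Lmod1 encodes leiomodin 1, which nucleates actin filaments in smooth muscle. It is a plus-strand gene on chromosome 1 (mm10, 135324807 to 135368065), and no other annotated exon overlaps its exons. Its mean was 735 normalized counts in wild type and 496 in knockout per the authors' deposited table, 1.48-fold lower. On the authors' shrunken log2 scale this was -0.33 ± 0.084 (SE, 3 libraries per genotype), with p = 8.17e-05 and an adjusted p of 0.0128 by the authors' test. Within the rounding of the deposited values, the means of Lmod1 match 79 different sets of whole reads in wild type and 25 in knockout, so its values in single libraries were not resolved.

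Lmod1 lies 14.8 Mb from lincRNA-Cox2 on the same chromosome, and other called genes lie near it. Within 1 Mb of Lmod1, 31 rows had an adjusted p and 5 of them were called in the authors' deposited table (16.1%, against 1.09% of all rows), 3 lower and 2 higher. The window was placed on Lmod1 because it was called, and without it 4 of 30 rows (13.3%) were called. Besides Lmod1 these were Lgr6, a receptor for R-spondins known in airway smooth muscle, Phlda3, Lad1 and Camsap2. Lgr6 fell from 297 to 175 (adjusted p = 0.0439) and Phlda3 from 1591 to 1156 (adjusted p = 1.25e-05) in the deposited table. Lad1 rose from 352 to 489 (adjusted p = 0.0034) and Camsap2 from 4425 to 5372 (adjusted p = 0.000404) there. Csrp1, a smooth muscle LIM protein gene 352 kb from Lmod1, had means of 18942 and 19430 in the same deposited table (adjusted p = 0.997). The loss of lincRNA-Cox2 and any other difference carried on the same stretch of chromosome 1 cannot be told apart in this design.

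**Figure D3:**
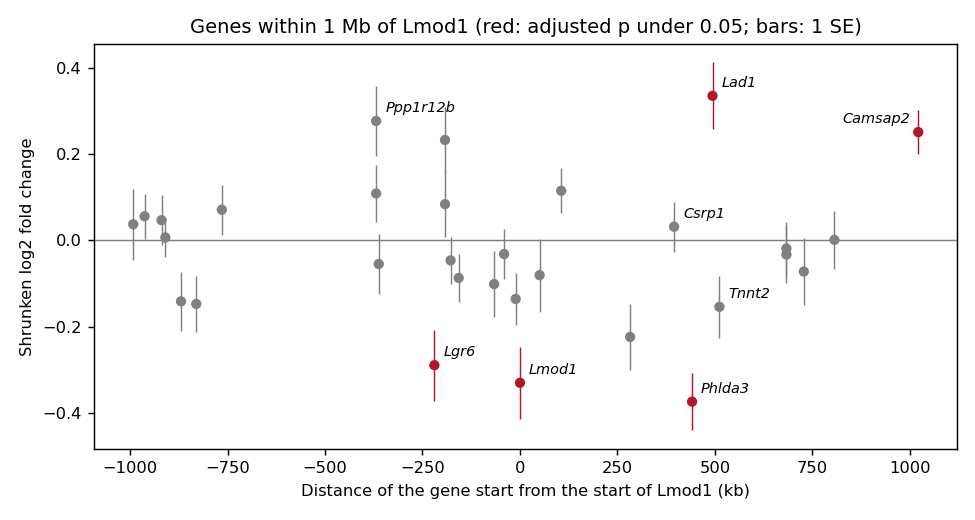
Authors' shrunken log2 fold change of each row within 1 Mb of Lmod1, by the distance of its start from the start of Lmod1 (kb), with bars of 1 standard error and rows at an adjusted p under 0.05 in red. Lgr6, Lmod1 and Phlda3 lie below 0 and Lad1 and Camsap2 above 0.

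The genes of the contractile motor were each lower in mean, and none of the 6 passed the test. Myh11 (minus strand of chromosome 16, 14194535 to 14291372) averaged 7845 normalized counts in wild type and 6588 in knockout, with -0.18 ± 0.077 (SE) on the shrunken log2 scale, p = 0.0187 and an adjusted p of 0.400 in the authors' deposited table. Myl9 (chromosome 2, 156775420 to 156781658, plus strand) averaged 4059 and 3529, with -0.15 ± 0.075, p = 0.0493 and an adjusted p of 0.586 by the authors' table. Acta2 (minus strand of chromosome 19, 34241090 to 34255590) stood at 6201 and 5379 by the authors' deposited values (-0.14 ± 0.080, p = 0.0899, adjusted p = 0.719). These 3 genes encode the heavy chain, the regulatory light chain and the actin of the same contractile unit, and their means were 1.19-fold, 1.15-fold and 1.15-fold lower.

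Actg2 averaged 785 and 676 normalized counts per the deposited table (adjusted p = 0.804). The actin genes have near-identical coding sequences, so how the authors' counting split reads between Acta2 and Actg2 is uncertain. Mylk, the light chain kinase that starts contraction, stood at 15133 and 14514 in the table the authors deposited (-0.049 ± 0.065, p = 0.450, adjusted p = 0.980), and its row also serves a form of the gene used outside muscle. Ppp1r14a, the inhibitor of myosin light chain phosphatase called CPI-17, had 1272 and 1160 there (adjusted p = 0.902). The kinase was therefore 1.04-fold lower in mean and its substrate Myl9 1.15-fold, a gap between genes that was not tested.

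Among the 10 genes of actin binding and filaments, 8 were lower in mean, 4 had an unadjusted p under 0.05 and Lmod1 was called. Tagln (minus strand of chromosome 9, 45929619 to 45936058) averaged 5890 and 4967, and its p of 0.0045 was the lowest after Lmod1 (-0.19 ± 0.069 SE, adjusted p = 0.184, in the authors' deposited table). Exons of Tagln overlap annotated exons of Pcsk7, whose reads may be shared with it. Smtn, which encodes smoothelin of the contractile cytoskeleton (minus strand of chromosome 11, 3517523 to 3540612), averaged 2876 and 2382, with -0.18 ± 0.079, p = 0.0202 and an adjusted p of 0.411 by the authors' deposited values. Des (chromosome 1, 75360329 to 75368579, plus strand), the intermediate filament desmin, averaged 5106 and 4456, with -0.15 ± 0.073, p = 0.0430 and an adjusted p of 0.558 by the same table of the authors. Des is the other of the 29 genes on chromosome 1, and it lies 74.8 Mb from lincRNA-Cox2.

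The remaining members of this role spread to both sides of 0. Cnn1, the actin-binding protein calponin, averaged 1953 and 1672 normalized counts per the deposited table (adjusted p = 0.755). Both tropomyosin genes were lower in mean without passing the test, Tpm2 having 2305 and 2034 in the authors' table (1.13-fold lower, adjusted p = 0.693) and Tpm1, the most abundant gene of the role, 14014 and 13740 (1.02-fold lower, -0.024 ± 0.060, p = 0.684, adjusted p = 0.997). Synpo2, an actin-bundling protein also known as myopodin, had 1299 and 1182 in the deposited table (adjusted p = 0.891). Cald1, encoding caldesmon, which restrains actomyosin, had 10330 and 10360 there (0.0038 ± 0.048, adjusted p = 0.999). Nexn, encoding the filament protein nexilin, was higher in mean in knockout, 1155 against 1263 in the deposited table (adjusted p = 0.859). Caldesmon and tropomyosin 1 are also made in non-muscle forms by many other cells, and the rows do not separate these forms.

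The adhesion and linkage genes, which tie the contractile cytoskeleton to the membrane and matrix, had 3 of 4 means higher in knockout and none called. Itga1, the collagen-binding integrin alpha 1, averaged 8702 and 9877 normalized counts per the authors' table (0.13 ± 0.074 SE, p = 0.0701, adjusted p = 0.669). Itga8, the integrin alpha 8 of stromal and muscle cells, had 10157 and 10749 there (adjusted p = 0.955), and Vcl, the focal adhesion protein vinculin, 15338 and 15585 (adjusted p = 0.997). Flna averaged 30002 and 28797 by the authors' table (-0.050 ± 0.062, p = 0.421, adjusted p = 0.977). The median log2 ratio was 0.052 in this role and -0.20 in the contractile motor, without a test of the gap between roles.

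Both transcriptional regulators were lower in mean, and neither was called. Srf (minus strand of chromosome 17, 46548329 to 46556175) averaged 2927 and 2586 normalized counts, with -0.14 ± 0.067 (SE), p = 0.0339 and an adjusted p of 0.517 in the authors' deposited table. Myocd averaged 97.5 and 86.3 by the authors' table (-0.058 ± 0.080, p = 0.470, adjusted p = 0.984). Its 2 means are low enough to match, within their rounding, few sets of whole reads of the 3 libraries. The knockout mean of Myocd can be made of 33, 105 and 121 reads or of 103, 99 and 60 reads in its 3 libraries. The wild type mean can be made of 76, 197 and 21, of 94, 109 and 88, or of 112, 21 and 155 reads. In all 6 pairings of these sets the normalized values of both genotypes overlapped.

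The 7 pericyte genes were all lower in mean, by small amounts, and none passed the test or had an unadjusted p under 0.05. Pdgfrb, the receptor that pericytes need for recruitment to vessels, averaged 6337 and 5822 normalized counts per the authors' table (-0.094 ± 0.072 SE, p = 0.190, adjusted p = 0.867). Cspg4, the proteoglycan NG2, had 1029 and 854, a ratio of 1.20-fold, of which shrinkage left -0.080 ± 0.077 (adjusted p = 0.936 in the deposited table). Mcam, the most abundant of them, had 11491 and 11009 by the authors' table (-0.054 ± 0.056, p = 0.335, adjusted p = 0.948). Kcnj8 and Abcc9, the pore and the regulatory subunit of the vascular ATP-sensitive potassium channel, had 451 and 409, and 868 and 824, in the deposited table (adjusted p = 0.931 and 0.997). Higd1b, a mitochondrial protein gene used as a pericyte marker, had 758 and 722 there (adjusted p = 0.980). Trpc6, a receptor-operated calcium channel of vascular muscle, had 1025 and 978 in the deposited table (adjusted p = 0.983). The median log2 ratio of the role was -0.075.

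Genes around these members were compared through lists of other genes of the pathway. A list of regulators of contraction and cofactors of Srf that are not among the 29 held 39 genes, all tested. Its median log2 ratio was -0.0027, with 20 lower in mean and 0 called by DESeq2 as the authors ran it. The Srf cofactor genes on it, Mkl1, Mkl2, Elk1, Elk3 and Elk4, were each lower in mean. At p under 0.05 without adjustment, 0 of the 39 were lower and 1 higher, against 4.04% of all rows lower and 8.47% in either direction. Among the 4 most abundant were Atp2a2, the calcium pump of the sarcoplasmic reticulum, Ppp1cb, the catalytic subunit of myosin phosphatase, and Pde5a, which breaks down cyclic GMP, with adjusted p-values of 0.986, 0.997 and 0.997 in the deposited table. Ppp1r12b, a targeting subunit of myosin phosphatase that lies 369 kb from Lmod1, stood in 2 rows. Its larger row had 1280 and 1403 in the deposited table (adjusted p = 0.734) and its smaller one 274 and 369 by the authors' table (p = 0.000683, adjusted p = 0.0561). The smaller row was singled out after its values were seen.

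Of 58 other tested genes, most of them of the contractile and adhesive cytoskeleton, 42 were lower in mean and the median log2 ratio was -0.053. Of the 58, 2 were called, both lower, against 1.09% of all rows called in either direction. At an unadjusted p under 0.05, 8 (13.8%) were lower and 2 higher, against 4.04% of all rows lower. The called genes were Lgr6 and Itga5. Lgr6 encodes a receptor and no part of the cytoskeleton, and it lies 220 kb from Lmod1, among the called neighbours described above. Itga5, the fibronectin-binding integrin alpha 5, fell from 3107 to 2637 by the authors' deposited values (-0.21 ± 0.055 SE, adjusted p = 0.0223). The 4 most abundant were the beta-actin gene Actb at 44287 and 41734, the non-muscle myosin gene Myh9 at 40410 and 35241, the integrin beta 1 gene Itgb1 at 30528 and 30891, and the nephronectin gene Npnt at 22182 and 23179 in the deposited table. Their adjusted p-values there were 0.877, 0.525, 0.997 and 0.962.

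Of 27 other tested pericyte, mural and vessel signalling genes, 20 were lower in mean and the median log2 ratio was -0.059. At an unadjusted p under 0.05, 3 (11.1%) were lower and 1 higher, against 4.04% of all rows lower. Of the 27, 1 was called, against 1.09% of all rows. The called gene was Hes1, a Notch target that many cell types express, which fell from 4073 to 2933 in the authors' deposited table (-0.37 ± 0.071 SE, adjusted p = 0.000104). The 4 most abundant were Postn, a matrix protein gene, Gucy1a3, a subunit of the nitric oxide receptor that is also on the list of contraction, the growth factor receptor gene Pdgfra and the transcription factor gene Tbx2. Their adjusted p-values in the deposited table were 0.390, 0.999, 0.925 and 0.991.

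Srf also controls immediate-early genes through other cofactors. Of 16 such genes and related growth response genes, all 16 were lower in mean, with a median log2 ratio of -0.44, and 3 were called, all lower, in the authors' deposited table. At an unadjusted p under 0.05 there were 9 (56.2%), all lower. Over all rows 4.04% were lower by that measure and 0.497% were called lower. Nr4a1, Egr1 and Ctgf had adjusted p-values of 0.00256, 0.0464 and 0.00179 in the deposited table. Among the abundant ones Fos, the AP-1 subunit, stood at 21779 and 11013 and Cyr61, a matricellular gene, at 24004 and 16467 there, with adjusted p-values of 0.149 and 0.163. The median was -0.44 here and -0.14 over the 29 genes, both of ratios before shrinkage, and the lists were not tested against each other. Shrinkage moved these genes unequally, Nr4a1 from -1.73 to -0.28 ± 0.064 (SE), Fos from -0.98 to -0.205 ± 0.069 and Ctgf from -0.31 to -0.27 ± 0.059. Over the 29 genes the median of the shrunken values was -0.086.

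**Figure D4:**
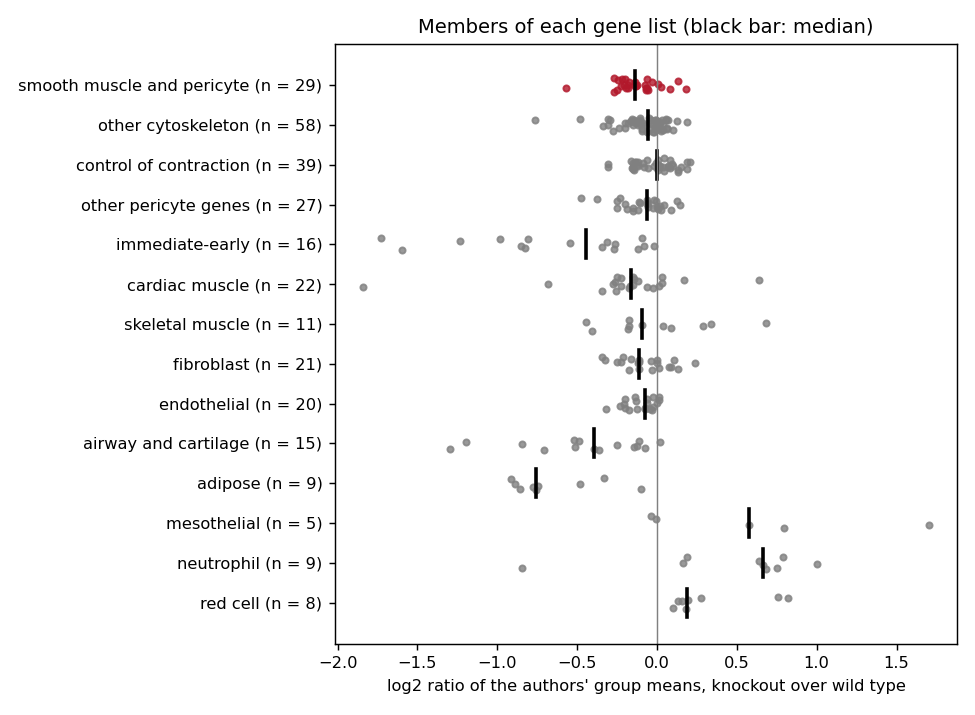
log2 ratio of the authors' group means for each tested gene, by list, with the median as a black bar. The smooth muscle and pericyte genes (red) have a median of -0.14, regulators of contraction with Srf cofactors -0.0027, and the immediate-early list -0.44.

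Markers of other cells that share genes with smooth muscle or neighbour it differed in mean between genotypes to differing degrees, and their part in the values above was not tested. Heart muscle lines the pulmonary veins of mice and uses Des, Nexn, Tpm1 and Vcl. Of 24 heart muscle genes found, 22 were tested, 17 were lower in mean, 0 were called by the authors' DESeq2 test, and 1 was under 0.05 without adjustment, Tnnt2, which lies within 1 Mb of Lmod1. Their summed mean was 29060 in wild type and 24555 in knockout, and the defining genes Myh6 and Myl7 were present in both genotypes. Airway and cartilage genes summed to 110943 and 93509, with 14 of 15 tested genes lower in mean, 0 called, and 1 at an unadjusted p under 0.05. Acan, which has no adjusted p, averaged 0.662 in wild type and was listed at 0 in knockout. Bpifa1, a secretory gene of the upper airway, stood at 16934 and 7402 in the deposited table (adjusted p = 0.739). Fibroblast genes summed to 173549 and 168261, with a median log2 ratio of -0.11 and 15 of 21 lower in mean. Of these, 0 were called, and 0 were lower and 1 higher at an unadjusted p under 0.05. Endothelial genes summed to 292848 and 278161, with a median of -0.076, 18 of 20 lower in mean and Nos3 called lower in the deposited table (adjusted p = 0.0378). At an unadjusted p under 0.05, 5 of the 20 (25.0%) were lower and 0 higher, a share near the 24.1% of the 29 genes. Over all rows 4.04% were lower by that measure, and 1.09% were called in either direction. Skeletal muscle genes summed to 2059 and 1821, with 6 of 11 tested genes lower in mean and 0 called. By the unadjusted measure 0 of them were lower and 1 higher, Atp2a1, a calcium pump, at 57.9 and 92.8 in the deposited table (adjusted p = 0.587). The skeletal actin gene Acta1 had means of 4.02 and 2.62 there.

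The remaining lists held immune, blood, surface and fat genes. Over all rows 0.592% were called higher and 0.497% lower, and 8.47% had an unadjusted p under 0.05. Fat genes summed to 8717 and 5545, with all 9 tested genes lower in mean, 0 called and 1 at an unadjusted p under 0.05. Neutrophil genes summed to 11890 and 15514, with 6 of 9 tested genes called higher in the authors' deposited table (S100a8, S100a9, Cxcr2, Csf3r, Retnlg and Clec4d). Mesothelial genes summed to 10505 and 15313, with 2 of 5 tested, Rspo1 and Muc16, called higher and 3 of 5 higher at an unadjusted p under 0.05. The other 5 of the list (Msln, Upk3b, Wt1, Lrrn4 and Bnc1) have no p-value in the deposited table and were 5.44-fold to 9.60-fold higher in mean in knockout. Shrinkage left little of these ratios, with shrunken log2 fold changes from 0.054 ± 0.025 (SE) for Bnc1 to 0.18 ± 0.045 for Wt1. Of all 20494 rows, 20477 have a p-value, and why these 5 genes have none is not stated. Reads per library were derived for Wt1 alone among them, so whether 1 library carried the means of the others was not tested. Wt1 had 11, 13 and 3 reads in the wild type libraries A, B and C and 28, 137 and 35 in the knockout libraries, and Muc16 12, 33 and 18 and then 61, 105 and 43. Knockout library B was the highest of the 6 in both, and the genotypes did not overlap. The knockout means of both genes lie above 60, where the share of means with a single match was not counted. Red cell genes summed to 85477 and 93937, all 8 higher in mean, with 0 called and 1 at an unadjusted p under 0.05.

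Reads per library could be derived for low genes, since each group mean up to 40 matched a single combination of whole reads over 3 libraries. A match was a sum within the rounding of the last printed digit, widened by the uncertainty of what 1 read is worth in each library. Above 40 and up to 60, 543 of 556 wild type means and 470 of 511 knockout means had a single match. Genes in that range, such as Sgca, Trp63 and Hapln1, were used where both of their means had one. Wt1, Muc16 and Casq1 also had a single match in both groups, but their knockout means (65.8, 68.8 and 62.9) lie above 60. The share of single matches above 60 was not counted. These libraries have no sample name, so letters A, B and C stand for them separately in wild type and in knockout, with no pairing between genotypes. None of the 29 genes is low enough. Low enough were 6 genes of the other cytoskeleton and pericyte lists, and 5 airway and cartilage genes with a mean above 10. Sgca, a sarcoglycan of the muscle membrane, had 57, 54 and 37 reads in the wild type libraries and 49, 42 and 31 in the knockout libraries. Lmod3, a leiomodin of striated muscle, had 32, 29 and 35 reads in wild type and 38, 22 and 19 in knockout. Ebf2, a transcription factor of the pericyte list, had 35, 36 and 27 reads in wild type and 34, 29 and 14 in knockout. In each of these 3 genes knockout library C was the lowest of the 6, and the genotypes overlapped.

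The other low genes of these lists were Nrip2, with 19, 21 and 22 reads in wild type and 23, 15 and 15 in knockout, Smtnl1, with 15, 8 and 13 and then 11, 12 and 12, and Foxd1, with 4, 7 and 5 and then 4, 3 and 3. Here knockout library C did not stand alone. The normalized values of the genotypes did not overlap in Foxd1, which had 3 to 7 reads per library. The airway basal cell gene Krt5 had 27, 52 and 38 reads in wild type and 10, 39 and 0 in knockout, and Trp63, another gene of basal cells, 50, 82 and 36 and then 43, 59 and 17. Sox9, which marks cartilage among other cells, had 25, 38 and 21 reads in wild type and 29, 26 and 10 in knockout. Hapln1 had 43, 44 and 42 and then 33, 42 and 27 reads, and Comp, a cartilage gene, 19, 17 and 10 and then 20, 11 and 13. Of these 5 genes the genotypes did not overlap in Hapln1. Knockout library C was the lowest of the 6 in Krt5, Trp63, Sox9 and Hapln1. Among airway and cartilage genes with a mean below 10, it was the lowest of the 6 in Lect1 and the highest in Matn3. In Col2a1 it was the middle knockout library. Over the 35 listed genes with a single match in both groups, the genotypes did not overlap in Acta1, Foxd1, Hapln1, Muc16 and Wt1. The share of such genes among all low rows was not counted. Low skeletal muscle genes with a mean above 10 were mixed. Knockout library C was the highest knockout library in Mylpf and Tnni2, the middle one in Actn3 and the lowest of the 6 in Casq1. A fit of the 29 genes without knockout library C could not be made from group means, and its part in their values was not tested.

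**Figure D5:**
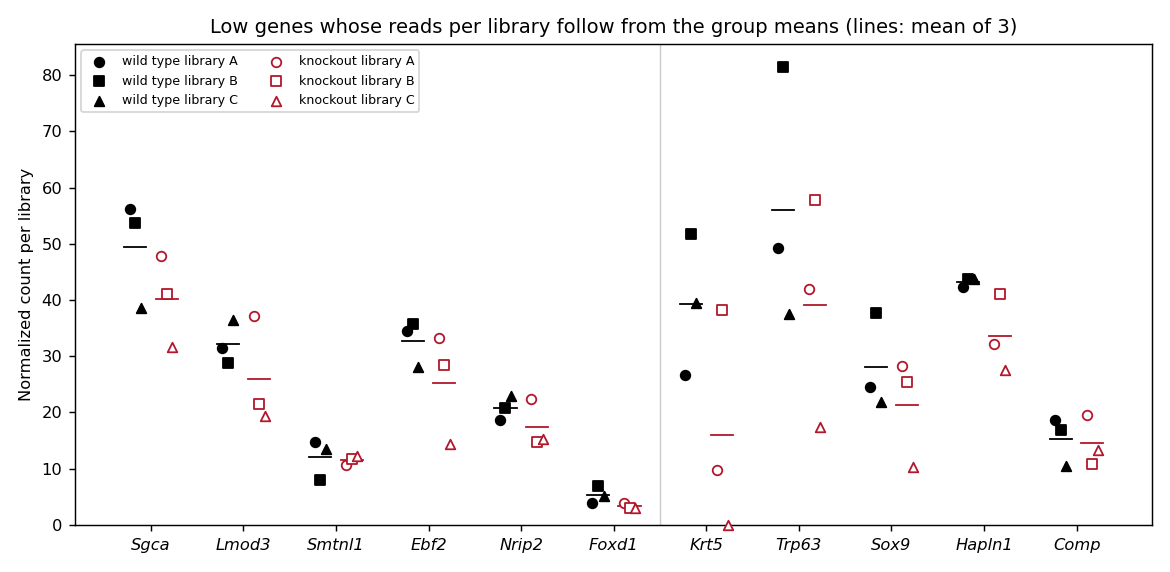
Normalized count per library (reads divided by the derived size factor) for low genes. Left of the grey line are 6 genes of the other cytoskeleton and pericyte lists, and right of it 5 airway and cartilage genes. Symbols mark libraries A, B and C, filled for wild type and open for knockout, and short lines are means of 3. Knockout library C (open triangle) is the lowest of the 6 libraries in Sgca, Lmod3, Ebf2, Krt5, Trp63, Sox9 and Hapln1.

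The size of change that this comparison can call bounds these statements. Among the 99 called rows with a mean of at least 1000, the smallest ratio was 1.13-fold and the median 1.30-fold in the authors' deposited table, and 0 of the 22 members in that range were called, with 6 at an unadjusted p under 0.05. An adjusted p that missed the threshold does not show that a gene had the same level in both genotypes.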

How the data were processed

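Whole lung RNA from 6 libraries, 3 per genotype, was sequenced, per the labels' protocols. The build in the submitters' processing notes is mm10, and the tools listed there, without role or order, are DESeq2, STAR 2.5.1b, Bowtie2, bedtools and SAMtools. How reads were counted, and whether by strand, is not given in the sources used here. Exons of 10 of the 29 genes overlap another annotated gene. Per the file headers, the authors deposited a signal, the mean of counts divided by size factors, for each genotype and for all libraries. The authors also deposited DESeq2's log2 fold change (maximum a posteriori, shrunken towards 0) with its standard error, a Wald statistic (a score), the p-value, and its adjusted form.

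Counts of libraries are not in the table, so the authors' test was used as it stands. A gene was called at an adjusted p under 0.05. The ratio of group means, counts by role and reads per library (for low genes whose 2 means each matched 1 set of whole reads) were computed in Python 3.11.15 with numpy 2.4.6 and scipy 1.17.1. For a listed symbol with more than 1 row, the most abundant row was taken. Of these steps, the derivation of reads was tested on simulated data, at means up to 40, as was the adjustment of p-values used for the alternatives. The ratios, the counts by role and the derivation above 40 were not. All 29 genes are named. Full statistics go to called genes, those at an unadjusted p under 0.05 and the gene of each role with the highest mean count. Beyond that rule they also go to Acta2, Itga1, Pdgfrb and Myocd. For these choices and for the other lists, the most abundant genes are those with the highest mean count, not divided by exon length. Of other lists the called and up to 4 of the most abundant genes are named; some of the regulators of contraction are not reported here. Further names were chosen after their values were seen (Ppp1r12b, the Srf cofactors, Csrp1, Tnnt2, Bpifa1, Acan, Acta1, Atp2a1, Myh6, Myl7, the mesothelial genes without a p-value, the neighbours of Lmod1 and the low genes with derived reads). The members and lists were chosen with earlier results of these data known. The labels do not say that libraries came from separate animals, so p-values measure the spread between these libraries. Alternatives covered the adjustment, the filter on low means, the threshold, the pseudocount, the scaling and chromosome 1.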

Additional observations from a re-analysis of the deposited data

How the results depend on the processing

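Of the 29 genes, 1 was called when p-values were adjusted over every row with a p-value (Lmod1, adjusted p = 0.0155), over rows with a mean of at least 50 (0.0120), at an adjusted p under 0.1, or over all rows of each symbol. Outside chromosome 1 the count was 0 of 27, with 5 under 0.05 without adjustment in DESeq2 as the authors ran it; this alternative removes Lmod1 and Des. Over all genes, 300 rows were called at an adjusted p under 0.1 in place of 184. The count of genes below their wild type mean was 24 with the shrunken fold change too. The median log2 ratio lay between -0.14 and -0.086 over the alternatives, the latter with the shrunken fold change. For single genes, the shrunken fold change and the centring were computed; neither can turn a sign here. Leaving out each replicate in turn could not be run, because the table holds group means. No paired analysis was possible because the columns carry no replicate number.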
